A study of Mus musculus with 3 samples.

Results

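The cells described here are glia of the newborn mouse cortex with a transcript of Tagln, of Has2 or of both, found mainly in the Emx1-Cre library. A cell counted as a member when it had at least 1 UMI (unique molecular identifier, 1 counted transcript) of Tagln or Has2, at least 1 of Id3, and at least 1 of 2 or more of the astroglial genes Fabp7, Slc1a3, Tnc and Aqp4. It also had to lack Foxj1 (ependymal cells), Rgs5 (pericytes), Cldn5 (endothelium), Sox10 (oligodendrocyte lineage) and Eomes (intermediate progenitors). Of 36295 cells kept in the series, 1848 were members. The Emx1-Cre library held 1177 of them, or 63.7%, the hGFAP-Cre library 436 and the control 235. The members were chosen by the counts of these 12 genes, so their levels are given as a description only. Cells that met every condition except the one on Tagln and Has2 are called gate glia, and the 894 gate glia of the Emx1-Cre library with neither transcript serve as the cells to set the members against.

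The Emx1-Cre library came from animals labelled EMX-Cre_MAP2K1/2-dcko, a double conditional knockout of Map2k1 and Map2k2 with Cre driven by Emx1, a gene of dorsal forebrain progenitors. The hGFAP-Cre library, labelled hGFAP-Cre_MAP2K1/2-dcko, targets the same genes with Cre driven by the human GFAP promoter, which is active in radial glia. The control carried floxed Map2k1 and Map2k2, and its genotype label reads WT. All groups had FlashTag CellTrace Yellow, a fluorescent label taken up by progenitors lining the ventricle, placed in the lateral ventricle at embryonic day 18. Dorsal cortices were dissociated with papain at postnatal day 2, tdTomato-positive cells were sorted and libraries were made on the 10x Chromium platform. The labels give neither the tdTomato allele nor the number of pups, nor whether sorting also used FlashTag.

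Tagln encodes transgelin, an actin-binding protein best known from smooth muscle, and Has2 a synthase that makes hyaluronan, the large sugar polymer around which brain matrix is built. Tnc (tenascin C) is a matrix glycoprotein of radial glia and immature astrocytes, and Id3 is a target of bone morphogenetic protein (BMP) signalling that holds back differentiation factors. Map2k1 and Map2k2 encode the kinases MEK1 and MEK2, which activate ERK below growth factor receptors.

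There was 1 library for each genotype, so no difference between genotypes could be tested. Genotype, animal and library cannot be told apart, nor can sex where the control is compared. Xist was at 0.155 CPM (a gene's UMIs scaled to the same total in every sum of cells) in the Emx1-Cre, 0.823 in the hGFAP-Cre and 1585 in the control library. The Y-linked Ddx3y was at 37.5, 45.9 and 0 CPM, so the source of the control differed in sex from those of both mutants. Kept cells numbered 13199, 13135 and 9961 in that order, with medians of 5306, 5583 and 6533 UMIs. Each pair of libraries shared 34 to 54 kept barcodes, and no barcode was that of a member in more than 1 library. In members Map2k1 was at 15.1 CPM in the Emx1-Cre, 21.3 in the hGFAP-Cre and 24.8 in the control library, and Map2k2 at 174, 236 and 174 CPM, but tags at the end of a transcript need not fall in the deleted part and check nothing.

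At full counts gate glia were about as frequent in the 3 libraries, while the share with Tagln or Has2 differed. Gate glia made up 15.7% of kept cells (95% interval 15.1% to 16.3%) in the Emx1-Cre library, 16.7% (16.1% to 17.4%) in the hGFAP-Cre library and 16.2% (15.5% to 17.0%) in the control. Members made up 56.8% of the gate glia (54.7% to 59.0%, 1177 of 2071 cells) in the Emx1-Cre library, 19.8% (18.2% to 21.5%, 436 of 2200) in the hGFAP-Cre library and 14.6% (12.9% to 16.4%, 235 of 1615) in the control. The Emx1-Cre share was thus 2.87-fold the hGFAP-Cre share and 3.91-fold the control share. As a share of all kept cells, members came to 8.92%, 3.32% and 2.36% in the same order of libraries. These exact Clopper-Pearson intervals cover counting error only.

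Tagln (ENSMUSG00000032085, chromosome 9, 45929628 to 45936058, GRCm38) was detected in 44.5% of gate glia (42.4% to 46.7%) in the Emx1-Cre library, 18.5% (16.9% to 20.2%) in the hGFAP-Cre library and 10.7% (9.19% to 12.3%) in the control. Has2 (ENSMUSG00000022367, chromosome 15, 56665627 to 56694546) set the Emx1-Cre library further apart, at 30.6% (28.6% to 32.6%), against 2.32% (1.73% to 3.04%) in the hGFAP-Cre library and 5.70% (4.62% to 6.94%) in the control. Neurons gave a first background, from Neurod6-positive cells with none of the 4 glial genes and no Id3. Tagln was seen in 0.238%, 0.124% and 0.113% of them and Has2 in 0.0795%, 0.0622% and 0.225%. Leaving out cells with those transcripts also leaves out neurons with stray glial RNA, so these shares may understate the background. In cells with both C1qa and C1qb, genes of microglia, Tagln was seen in 2.18%, 1.38% and 1.01% and Has2 in 2.18% in the Emx1-Cre library, 0 of 362 cells (up to 1.01%) in the hGFAP-Cre library and 0 of 297 (up to 1.23%) in the control, at medians of 5458, 7200.5 and 11145 UMIs. At full counts the shares in gate glia lay above both backgrounds, and Has2 in the hGFAP-Cre library did so by least. The neurons were shallower, with medians of 3477, 4148 and 5453 UMIs against 8044, 7536.5 and 11571 in members. For equal depth, cells under 3000 UMIs were left out, the others were thinned to 3000 UMIs and the rule was applied anew. This kept 87.2% of cells in the Emx1-Cre library, all 13135 in the hGFAP-Cre library and 92.3% in the control. Gate glia by thinned counts numbered 2060, 2349 and 1324, so they were not wholly the same cells. Members were then 39.3% of gate glia in the Emx1-Cre library, 12.1% in the hGFAP-Cre library and 7.33% in the control. The Emx1-Cre share was 5.36-fold the control share. Thinned neurons held Tagln in 0.0508%, 0.0525% and 0 of 1402 cells, and the order of the libraries was the same at equal depth. Has2 was then in 0.809% (0.488% to 1.26%) of hGFAP-Cre gate glia. In that library 0 of 341 thinned cells with C1qa and C1qb had Has2 (up to 1.08%), so the 2 intervals overlapped.

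**Figure D1:**
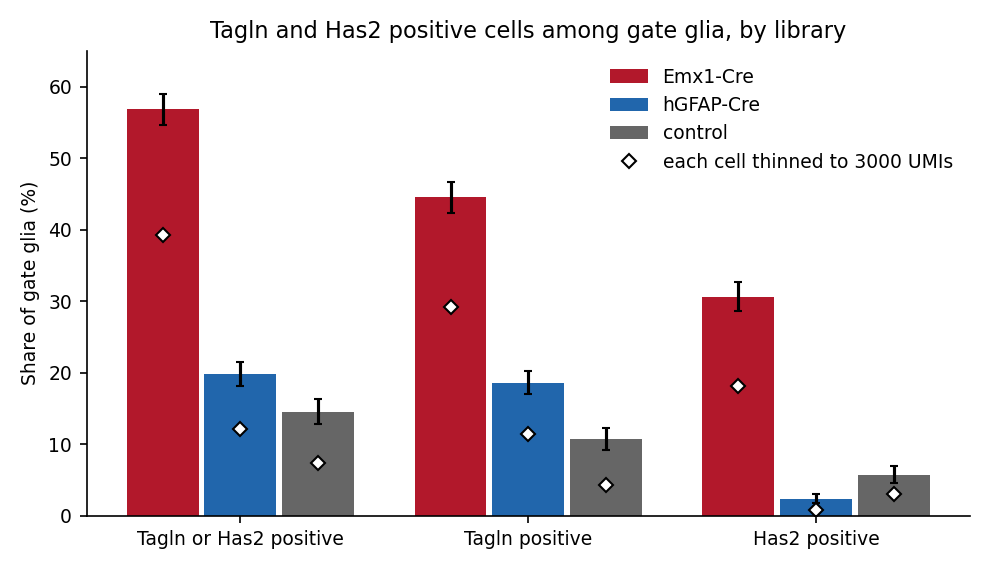
Share of gate glia (%) with Tagln or Has2, with Tagln and with Has2 in the Emx1-Cre, hGFAP-Cre and control libraries, with 95% Clopper-Pearson intervals. Open diamonds give the share with cells of at least 3000 UMIs thinned to 3000 UMIs and the rule applied anew. The Emx1-Cre bar is the tallest in every group of bars, at 56.8%, 44.5% and 30.6%.

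The members of the libraries were mixed differently. In the Emx1-Cre library 378 of 1177 members, or 32.1% (29.5% to 34.9%), had both transcripts, 544 had Tagln only and 255 had Has2 only. In the hGFAP-Cre library 88.3% of members had Tagln only and 5.28% both, and in the control 60.9% had Tagln only and 12.3% both. Within Emx1-Cre gate glia Has2 was found in 41.0% of Tagln-positive cells (37.8% to 44.3%) and in 22.2% of Tagln-negative cells (19.8% to 24.7%). After thinning the same shares were 27.7% and 14.2%, so the Emx1-Cre shares kept the same order at equal depth. In the hGFAP-Cre library they were 5.64% and 1.56%, and thinned 0.746% (2 of 268 cells) and 0.817%. In the control they were 16.9% and 4.37%, and thinned 1.75% (1 of 57 cells) and 3.16%. The order was thus not kept in those libraries, where few cells had both.

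Members lay close to the rule's edge in part. In the Emx1-Cre library 388 members (33.0%) had a single UMI of Tagln and Has2 together, 236 had 2 and 553 had 3 or more, and the highest Tagln count in a cell was 75 UMIs. A single UMI carried 56.7% of hGFAP-Cre members and 57.9% of control members. Of the 1490 Emx1-Cre cells with Tagln or Has2, 80 failed only because they had Foxj1, 42 only through Rgs5 and 34 only through Eomes. In the hGFAP-Cre library 266 of 909 such cells failed only through Foxj1, so the rule leaves out many Tagln or Has2 cells with an ependymal gene there, and in the control 18 of 345. Scrublet called 8.67% of Emx1-Cre members and 10.2% of the other Emx1-Cre gate glia doublets, and both were kept.

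Members carried glial genes outside the rule, some at levels near those of the other gate glia and others, such as Ncan, Hopx, Gfap and Mfge8, not. The genes given next were added after their values were seen. Emx1-Cre members had Sox9, a transcription factor of glia, at 174 CPM against 181 CPM in the other gate glia, Hes5, a NOTCH target of radial glia, at 505 against 495, and Vim, the intermediate filament vimentin, at 1357 against 1281. Ptprz1, a receptor phosphatase of astroglia, was at 1307 CPM against 1478, and Aldoc, a glycolytic enzyme of astrocytes, at 520 against 481. The 10 mural markers summed to 122 CPM in members against 68.3 CPM, of which Acta2 gave 59.97 against 20.6 CPM, with Myh11 at 0 in members. Fibroblast markers summed to 1211 against 1153 CPM, mostly Igfbp2 at 1136 against 1075 CPM, and choroid plexus markers to 6.83 against 6.30 CPM with Kl at 0. Endothelial markers summed to 143 against 107 CPM with Tek and Ly6c1 at 0. The part of such cells in the results was not tested beyond the values given with them.

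Within the Emx1-Cre library, members and other gate glia share the sort and the library, and few genes separated them. Of 7976 genes at 10 CPM or more in either sum, 69 (0.865%) were at least 1.5-fold higher in members and 49 (0.614%) at least 1.5-fold lower, counting ratios with 5 CPM added to both sums and including Tagln, Has2 and Tnc of the rule. The median log2 ratio of all genes was −0.03. This median and the shares over all genes are those to set beside the list counts given below for this contrast. Members were somewhat deeper, with a median of 8044 UMIs against 7039.5, and with the other gate glia limited to a like depth the counts were 76 and 45. Cells of 1 library are not replicates, so these are descriptions with Poisson counting intervals and no test.

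Matrix genes stood among the higher ones. The tenascin Tnc, a rule gene, was at 1287 CPM in members (1265 to 1309) against 794 CPM (773 to 815), and had a UMI in 96.9% against 88.1% of cells. Cd44, the main cell surface receptor for hyaluronan, was at 63.1 CPM (58.3 to 68.1) against 37.4 (33.0 to 42.2). Ncan, a hyaluronan-binding proteoglycan of brain matrix, was at 1337 CPM against 884 CPM, and Bcan, its relative brevican, at 426 against 335, under 1.5-fold. Sparc, a collagen-binding secreted protein, was at 290 CPM against 180 CPM, and Timp3, an inhibitor of matrix proteases, at 125 against 78.6. Spp1, which encodes osteopontin and is made by microglia among others, was lower at 3.41 CPM against 16.9 CPM. Of 39 hyaluronan and matrix genes, 23 were measured outside the rule, 4 were called higher and 1 lower, with a median log2 ratio of 0.16. Has1, another hyaluronan synthase, had no UMI in members.

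Plat and Serpinf1 of the plasminogen list were among the clearest differences. Plat, tissue plasminogen activator, which cuts plasminogen to the protease plasmin, was at 273 CPM in members (263 to 283) against 151 CPM (142 to 160), and was detected in 77.7% against 56.3% of cells. Serpinf1, a secreted serpin known as pigment epithelium-derived factor, was at 78.6 CPM (73.3 to 84.2) against 20.05 CPM (16.9 to 23.7), a log2 ratio of 1.74, with a UMI in 24.6% against 6.49% of cells. Anxa2 and S100a10, which together form a cell surface receptor for plasminogen and its activator, were at 136 against 94.1 CPM and at 86.1 against 56.9 CPM, both short of 1.5-fold. Plg, plasminogen itself, had no UMI in members. These 2 were the called genes among 7 measured of 12 listed, and the list's median log2 ratio was 0.51, above the −0.03 of all genes.

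Several genes of BMP signalling were higher in members. Nog, a secreted BMP antagonist, was at 40.6 CPM (36.8 to 44.7) in members against 20.3 CPM (17.1 to 23.97). Smad6, an intracellular inhibitor of the pathway, was at 10.2 against 4.01 CPM and Msx2, a BMP-responsive homeobox gene, at 10.1 against 4.30 CPM. Id4, of the same family as Id3, was at 105 CPM against 65.4 CPM, while Id1 was at 713 against 632 and Id2 at 464 against 512. With Smad7, 5 of 15 measured members of the list were called higher and none lower, and the median log2 ratio was 0.25. The ligands Bmp4, Bmp6 and Gdf7 had no UMI in members. Tgfb2, a ligand of the related TGF-beta branch, was at 122 CPM (115 to 129) against 72.5 CPM (66.3 to 79.1), the single call among 7 measured genes of its list.

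Few other contractile genes were higher along with Tagln in this library. Of 29 listed actin-binding and contractile genes, 25 were measured and 2 were called higher, with a median log2 ratio of 0.06. Over all genes 0.865% were called higher. Acta2, smooth muscle actin, was at 59.97 CPM (55.3 to 64.9) against 20.6 CPM (17.4 to 24.3), and was found in 18.01% of members against 10.1% of the other cells. Cnn2, calponin 2, was at 11.2 CPM against 5.59. Myl9, the light chain of smooth muscle myosin, was at 23.7 against 23.1 CPM and Tpm1, tropomyosin 1, at 169 against 164, while Csrp2, a LIM protein of smooth muscle, was at 66.9 against 95.4.

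The NOTCH target Heyl was at 34.7 CPM (31.2 to 38.5) in members against 12.7 CPM (10.2 to 15.7), a log2 ratio of 1.16, and was 1 of 11 measured genes of the NOTCH list to be called. Its relatives Hey1 and Hey2 were at 76.8 against 53.8 CPM and at 21.2 against 12.5 CPM, just short of 1.5-fold. S100a11, a small calcium-binding protein, was at 186 CPM (178 to 194) against 99.5 CPM (92.3 to 107). Hopx, a homeodomain factor of outer radial glia, was at 141 against 91.5 CPM. The p53 target Phlda3 was at 172 against 107 CPM, with Cdkn1a, the best known target, at 31.3 against 25.5.

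In several lists at most 1 gene was called. None of 17 measured astrocyte maturation genes was called, with a median of −0.04, although Gfap, the filament of mature and reactive astrocytes, was at 106 CPM (99.4 to 112) in members against 160 CPM (151 to 169). Of 16 ERK response genes 1 was called, Il17rd, a feedback inhibitor of FGF signalling, at 24.3 against 12.5 CPM, and the median was 0.04. The ETS factors Etv1, Etv4 and Etv5 were at 84.8 against 80.2, 38.9 against 43.7 and 39.8 against 43.8 CPM. Mki67 or Top2a, genes of dividing cells, had a UMI in 46.2% (43.3% to 49.1%) of members and 45.9% (42.6% to 49.2%) of the other gate glia. After thinning the share was lower in members, at 29.9% (26.8% to 33.2%) against 35.8% (33.2% to 38.5%), with intervals that just met. None of 19 S phase and none of 20 G2/M genes was called, and the medians were 0.05 and −0.23. The G2/M median lay below the −0.03 of all genes, and the list summed to 3733 CPM in members against 4450 CPM.

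Outside the lists the highest ratio among genes at 50 CPM or more belonged to Npy (ENSMUSG00000029819, chromosome 6, 49822710 to 49829507), which encodes neuropeptide Y and is best known from interneurons. It was at 194 CPM (185 to 203) in members against 46.5 CPM (41.6 to 51.9) in the other gate glia, a log2 ratio of 1.95. It was carried by a minority: 27.1% of members (24.6% to 29.7%) had a UMI, against 8.17% (6.45% to 10.2%), and a positive member had a median of 3 and at most 70 UMIs. Cdkn1c, the cell cycle inhibitor p57, followed at 74.98 CPM (69.8 to 80.5) against 17.2 CPM (14.2 to 20.5). Fgfbp3, which binds secreted fibroblast growth factors, was at 244 against 117 CPM and Selm, a selenoprotein, at 607 against 346. Flt1, a receptor of vascular endothelial growth factor on the endothelial list, was at 28.2 against 8.02 CPM.

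A group added after its values were seen is the antigen presentation set known as MHC class II, usually a mark of immune cells. H2-Ab1 was at 45.1 CPM (41.1 to 49.5) in members against 12.3 CPM (9.85 to 15.2) and H2-Eb1 at 38.1 CPM (34.4 to 42.1) against 6.87 CPM (5.07 to 9.11). H2-Aa was at 14.7 against 5.30 CPM, the invariant chain Cd74 at 11.7 against 2.86 and H2-DMa, which helps load peptides, at 23.5 against 10.2. Microglial transcripts went the other way: C1qa, a complement gene of microglia, was at 3.803 CPM (2.70 to 5.20) in members against 20.6 CPM (17.4 to 24.3), and the 10 microglia markers summed to 54.2 against 157 CPM. H2-Ab1 was detected in 18.9% of members, against 7.05% of the other gate glia.

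**Figure D2:**
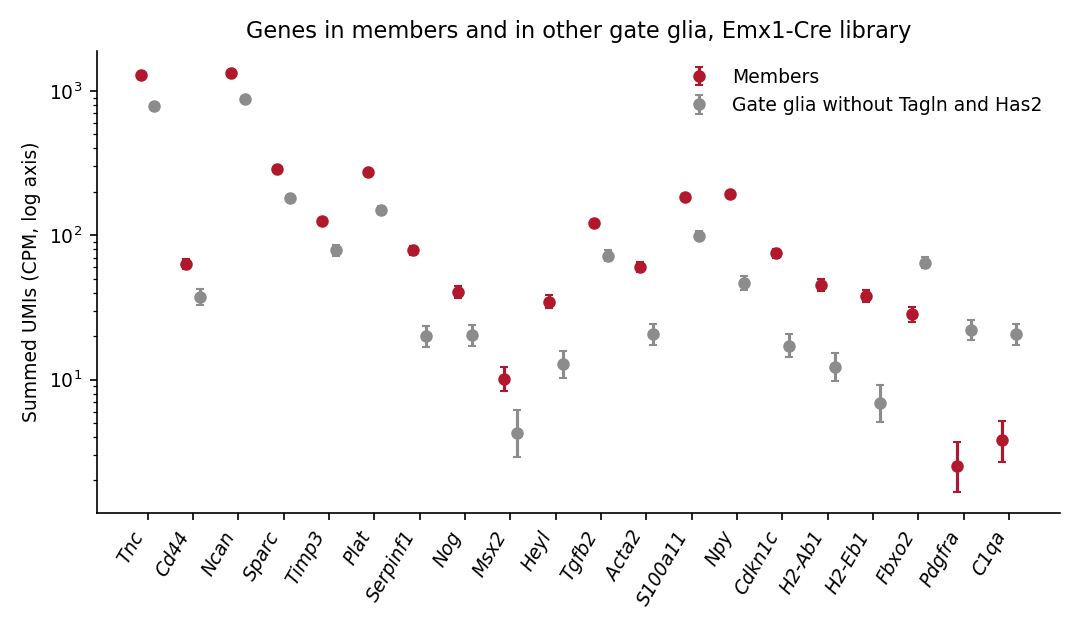
Summed UMIs (CPM, log axis) of 20 genes in the 1177 members and in the 894 gate glia without Tagln and Has2 of the Emx1-Cre library, with 95% Poisson intervals. Npy stands at 194 CPM in members against 46.5 CPM, and Pdgfra at 2.54 against 22.2 CPM.

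Markers of microglia, oligodendrocyte precursors and ependymal cells were among the 49 genes lower in members, beside genes on no marker list such as Mfge8, Car8, Luzp2 and Pdcd4. Of 7 measured microglia markers 6 were called lower, with a median of −1.25. Pdgfra, the growth factor receptor of oligodendrocyte precursors, was at 2.54 CPM against 22.2 CPM and Lhfpl3, another gene of these cells, at 2.15 against 16.2. Of 5 measured ependymal markers 3 were called lower, such as Dynlrb2, a dynein light chain of cilia, at 8.19 against 17.2 CPM. Among genes at 50 CPM or more outside the lists, Fbxo2, a ubiquitin ligase subunit of neurons, had the lowest ratio at 28.4 against 64.7 CPM, a log2 ratio of −1.06. Fbxo2 was also a leading gene of the cluster led by Necab2 and Dynlrb2, described below. Without clusters led by genes of other cell types its log2 ratio was −0.43, and that of Pdcd4 −0.28 in place of −0.64, both under 1.5-fold. Igfbp5, an insulin-like growth factor binding protein, was at 98.4 against 160 CPM, which turned to a log2 ratio of 0.24 without clusters led by genes of other cell types, so its direction rests on those cells.

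The contrast was graded with the number of Tagln and Has2 UMIs in a cell. Npy was at 46.5 CPM in gate glia with 0, 95.6 CPM with 1, 199.7 CPM with 2 and 258 CPM with 3 or more UMIs of the pair. Plat was at 151, 204, 235 and 336 CPM and Serpinf1 at 20.05, 41.9, 47.6 and 117 CPM along the same steps. Cdkn1c behaved otherwise, at 17.2, 27.3, 17.9 and 133 CPM, so that its difference lay in cells with 3 or more UMIs. Acta2 was at 20.6, 21.6, 44.7 and 92.8 CPM, and H2-Ab1 at 12.3, 24.6, 41.9 and 60.6 CPM. Gfap had no such order, with 159.8, 86.2, 143 and 102 CPM. The median depth of these cells was 7039.5, 7841.5, 8203.5 and 8108 UMIs.

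Tagln and Has2 marked partly different members of the Emx1-Cre library. Of 7988 genes, 73 (0.914%) were at least 1.5-fold higher in the 544 members with Tagln only than in the 255 with Has2 only, and 116 (1.45%) at least 1.5-fold lower. Acta2 was at 84.4 CPM (76.4 to 93.1) in Tagln-only members against 12.7 CPM (8.44 to 18.4) in Has2-only members. S100a11 was at 221 against 104 CPM, Lgals1, which encodes galectin 1, at 284 against 180, Gfap at 141 against 83.5 and Cdkn1c at 59.7 against 19.1. Each of these was thus higher where Tagln alone was detected.

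Has2-only members were the richer ones in Npy, at 114 CPM (105 to 124) in Tagln-only members against 234 CPM (214 to 255) in Has2-only members. The same held for Tgfb2, at 87.6 against 143 CPM, for Cd44, at 45.7 against 75.8, and for Slco1c1, a thyroid hormone transporter, at 49.4 against 83.9. Msmo1, an enzyme of sterol synthesis, was at 161 against 279 CPM, Sqle at 50.5 against 81.2, Cyp51 at 78.8 against 127 and Insig1 at 52.99 against 84.8. These last genes were picked after their values were seen, and no list of sterol genes was counted.

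The 378 members with both transcripts held the highest levels of several genes among these subsets. By definition they have at least 2 UMIs of the pair, so this overlaps with the grading by UMIs above. Npy was at 283 CPM, Serpinf1 at 124, Cdkn1c at 135, Plat at 346, Heyl at 56.8 and H2-Ab1 at 68.1 CPM in them. Acta2 did not follow, with 56.2 CPM in double-positive against 84.4 CPM in Tagln-only members, nor did Gfap, with 69.0 against 141 CPM. S100a10 was likewise at 74.2 against 105 CPM.

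**Figure D3:**
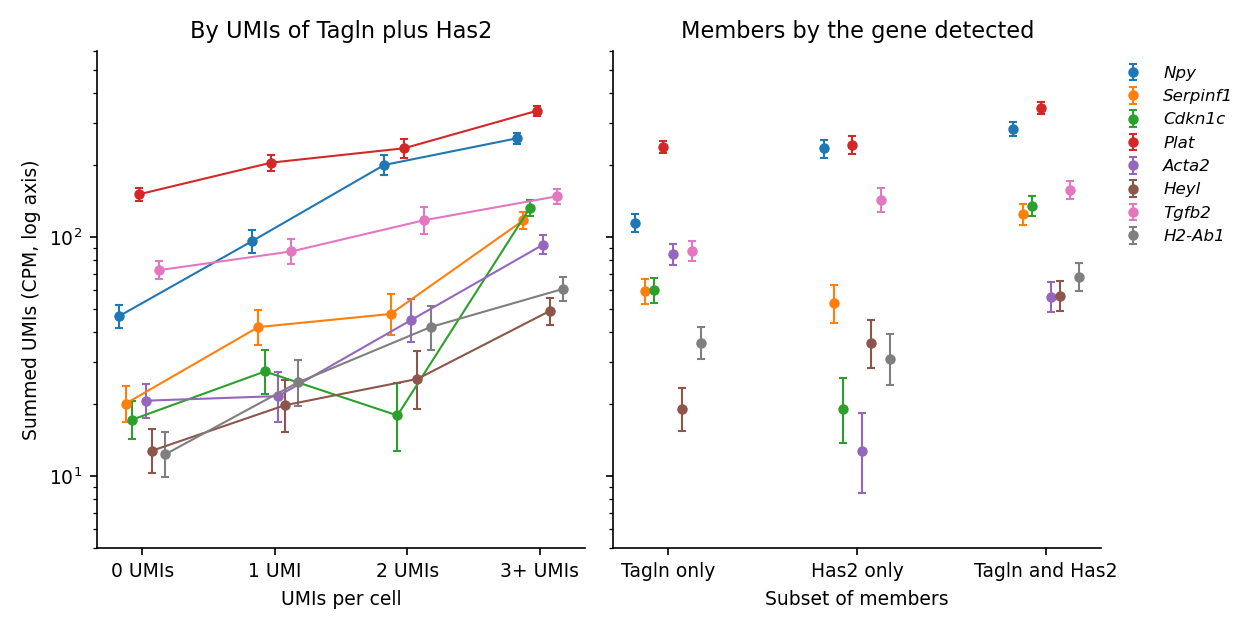
Summed UMIs (CPM, log axis) of 8 genes in Emx1-Cre gate glia with 0, 1, 2 and 3 or more UMIs of Tagln plus Has2 (left) and in members with Tagln only, Has2 only or both (right), with 95% Poisson intervals. Npy goes up at every step on the left, to 258 CPM, and Acta2 is lowest with Has2 only, at 12.7 CPM.

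Clusters of the 2071 Emx1-Cre gate glia, built without the 12 genes of the rule, showed where members sat. At Leiden resolution 1 there were 16 clusters, here called by their leading genes, and members made up 41.2% to 70.0% of the cells in 12 of them. Their share was 89.9% (82.7% to 94.9%) in the 109 cells led by Cdkn1c, H2-Eb1 and H2-Ab1, and 85.1% (74.3% to 92.6%) in the 67 cells led by Hopx, Npy and Rhcg. It was 18.5% (9.92% to 30.03%) in 65 cells led by Necab2, Dynlrb2 and Tmem212, and 10.5% (2.94% to 24.8%) in 38 cells led by Pdgfra and Lhfpl3. The 12 clusters included some led by genes of other cell types. Their lowest share, 41.2%, was in 17 cells led by Fcer1g, Tyrobp and Lyz2, of which the first 2 are on the microglia list. Their highest, 70.0%, was in 40 cells led by Col3a1, Dcn and Apod. Members were thus spread over clusters of several kinds and were not a cluster of their own. Whether cells of such clusters were mixed was not tested.

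**Figure D4:**
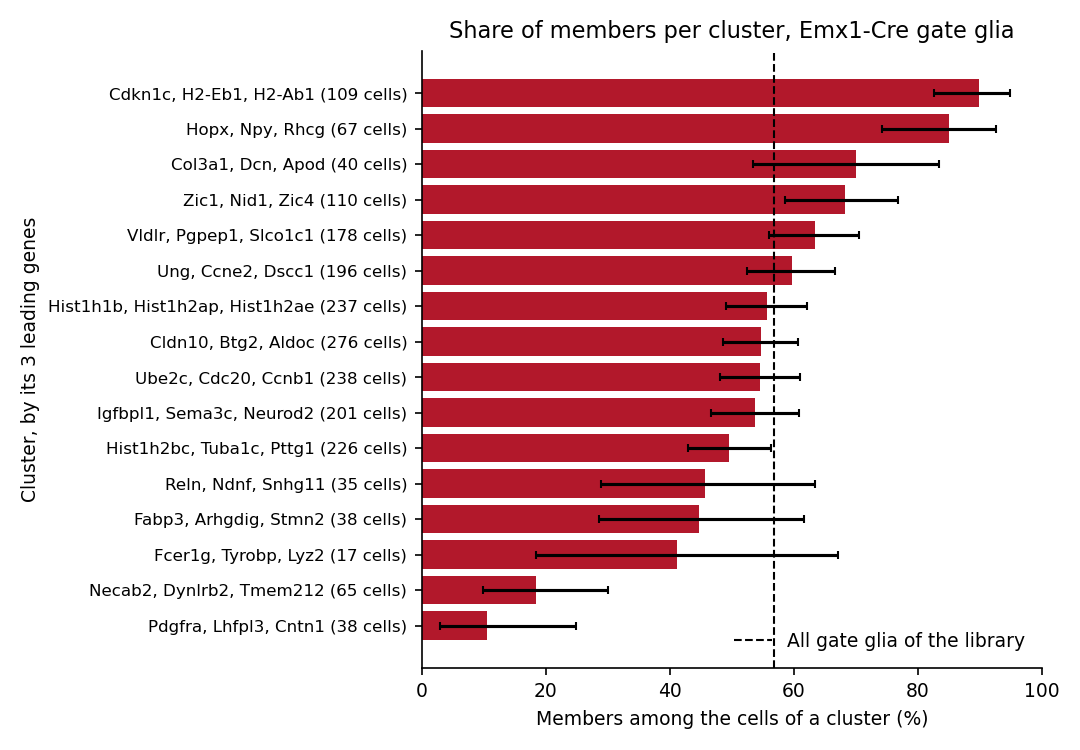
Share of members (%) among the cells of each of 16 clusters of Emx1-Cre gate glia, named by their 3 leading genes, with 95% Clopper-Pearson intervals. The dashed line is the 56.8% over all 2071 cells. The shares run from 10.5% in the cluster led by Pdgfra to 89.9% in that led by Cdkn1c.

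The cluster led by Cdkn1c and H2-Eb1 held 8.33% of members and a large part of some transcripts. It gave 53.7% of the Cdkn1c UMIs of members, 43.7% of those of H2-Eb1, 34.1% of H2-Ab1, 27.8% of Serpinf1 and 23.9% of Npy. Without it the log2 ratio of members over other gate glia was 0.97 in place of 1.85 for Cdkn1c, 1.41 in place of 1.86 for H2-Eb1 and 1.70 in place of 1.95 for Npy. Its cells had the highest Tnc and Has2 of the 16 clusters, 2681 and 348 CPM, and 14.7% of them had Mki67 or Top2a.

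High Tagln and Acta2 with little Npy marked 2 other clusters, and 1 of them had high Gfap. The levels given next are sums over members and other cells of a cluster together. In the 110 cells led by Zic1, Nid1 and Zic4, 68.2% of them members, Tagln was at 627 CPM, Plat at 791, Acta2 at 189 and Gfap at 956, while Npy was at 2.46 CPM. Otx2, a homeobox gene of the forebrain and midbrain, and Six3, of the anterior forebrain, were among its 12 leading genes. The 40 cells led by Col3a1, Dcn and Apod, 70.0% of them members, held Tagln at 674 CPM and Acta2 at 312 CPM with Npy at 4.59 and Gfap at 6.88, and Col3a1, Dcn and Lum are genes of fibroblasts. These 2 clusters gave 24.6% and 20.8% of the Acta2 UMIs of members and 6.37% and 2.38% of the members. Leaving out every cell with a UMI of Pdgfrb, Vtn, Kcnj8, Col1a1, Col1a2, Col3a1, Dcn or Lum, genes of mural cells and fibroblasts, the Acta2 log2 ratio was 0.87 in place of 1.34. Clusters led by Igfbpl1 and Neurod2, by Fabp3 and Stmn2 and by Reln held neuronal genes beside the glial ones, and their part in the results was not tested one by one.

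Inside the 7 clusters with at least 50 members and 50 other cells, Serpinf1, H2-Ab1 and H2-Eb1 were at least 1.5-fold higher in members in each. The intervals of Serpinf1 lay apart in each. Those of H2-Eb1 overlapped in most, as at 8.56 CPM (3.91 to 16.2) against 1.45 CPM (0.0367 to 8.08) among the cells led by Ung. Those of H2-Ab1 overlapped in the clusters led by Hist1h1b and by Vldlr. Npy was higher in all 7 and past 1.5-fold in 6. Among the 276 cells led by Cldn10, Btg2 and Aldoc, with Slc1a2 among their leading genes and 10.1% dividing, Npy was at 175 CPM in members against 66.0 CPM in the others. Among the 196 cells led by the S phase genes Ung and Ccne2 it was at 107 against 4.35 CPM. Heyl passed 1.5-fold in 6 of the 7, with overlapping intervals in some of them, Plat and Fgfbp3 in 4, and Tnc in 2. Acta2 was higher in 6, with intervals apart only among the cells led by Ube2c. It was lower in 1, with 4.95 CPM (1.61 to 11.6) against 17.9 CPM (9.51 to 30.5) among the cells led by Cldn10, where the intervals overlapped. Gfap was lower in members in 6 of the 7, with overlapping intervals in some of them.

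Regional genes of the Emx1-Cre members differed from those of the other libraries. Emx1 itself, the gene whose promoter drives Cre, was at 2.05 CPM (1.27 to 3.13) in Emx1-Cre members, against 75.7 CPM (67.2 to 85.1) in hGFAP-Cre members and 29.9 CPM (24.01 to 36.9) in control members. The other Emx1-Cre gate glia had 3.58 CPM, but Eomes-positive cells without Slc1a3 in the same library had 62.4 CPM (56.9 to 68.2). In the hGFAP-Cre library and the control, such Eomes-positive cells had 107 CPM (101 to 113) and 106 CPM (96.1 to 117). The other gate glia of those libraries had 75.7 and 38.4 CPM. Emx1 was thus lower in the Emx1-Cre library in members, in other gate glia and, by less, in Eomes-positive cells. Lhx2, a cortical selector, was at 81.8, 268 and 337 CPM in members of the Emx1-Cre, hGFAP-Cre and control libraries. Six3 was at 13.1, 2.39 and 0 CPM and Otx2 at 5.66, 0.266 and 0 CPM. The other Emx1-Cre gate glia had Lhx2 at 101, Six3 at 5.87, Otx2 at 4.30 and En1 at 4.73 CPM, and of these only Six3 was at least 1.5-fold higher in members. Otx2 lay mainly in the cluster led by Zic1, at 90.8 CPM against 0.852 CPM in the rest of the Emx1-Cre gate glia. En1, a gene of the midbrain and hindbrain, was at 5.75 CPM in Emx1-Cre members and had no UMI in the members of the other 2 libraries. Whether cells of other regions entered the Emx1-Cre library was not tested.

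The hGFAP-Cre members differed from their own gate glia in other genes. There 96 of 8563 genes (1.12%) were at least 1.5-fold higher and 79 (0.923%) at least 1.5-fold lower in the 436 members than in the 1764 other cells. Acta2 was at 158 CPM (146 to 171) against 24.4 CPM (21.6 to 27.4), and 5 of 24 measured contractile genes were called, among them Tpm1 at 329 against 172 CPM and Myl9 at 183 against 101. The mural markers Vtn and Myh11 had no UMI in these members, and Pdgfrb, found on pericytes, was detected in 25.2% of them and 24.3% of the other cells. Summed mural markers were at 248 against 120 CPM with Acta2 called, fibroblast markers at 806 against 424 CPM with Igfbp2 called and Col3a1, Dcn and Lum at 0, and ependymal markers at 363 against 275 CPM with Rsph1 the single call of 7 measured and a median of 0.49. The part of such cells in these differences was not tested. S100a11 was at 450 against 194 CPM, Cryab, a small heat shock chaperone, at 333 against 129 and Thbs1, the matrix protein thrombospondin 1, at 39.1 against 12.9. Nppc, which encodes C-type natriuretic peptide, was at 38.5 CPM (32.5 to 45.3) against 6.18. Npy was at 2.13 CPM (0.918 to 4.19) in hGFAP-Cre members against 9.31 CPM (7.65 to 11.2), where 8 members had 1 UMI each. Its detection there was 1.83% (0.795% to 3.58%) of members and 2.95% (2.21% to 3.85%) of the other cells, and after thinning 1.75% and 1.65%, so a difference was not seen at equal depth.

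Control members, 235 cells, differed from their 1380 other gate glia in 142 of 8787 genes (1.62%) at least 1.5-fold higher and 160 (1.82%) at least 1.5-fold lower. Serpinf1 was among the higher ones there too, at 87.8 CPM (77.4 to 99.2) against 10.1 CPM (8.58 to 11.9). Plat was at 110 against 54.9 CPM, Ncan at 1312 against 664, Nog at 56.8 against 28.3 and Selm at 526 against 177. Gfap was higher in control members, at 269 CPM (250 to 288) against 128 (122 to 134), as was Aqp4, the water channel of astrocytes and a rule gene, at 301 against 134. Lef1 and Notum, a mediator and a target of WNT signalling, were at 17.0 against 4.67 and 19.7 against 5.21 CPM. Gas1, a co-receptor for sonic hedgehog, was lower at 216 against 423 CPM. Acta2 was at 2.04 CPM (0.749 to 4.44) against 0.676, close to nothing in both. The control members were deeper than the other gate glia, with medians of 11571 and 9300.5 UMIs.

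Side by side, some differences held in every library and others in 1 only, with no test between libraries. Cd44 had log2 ratios of 0.68, 0.68 and 0.66 in the Emx1-Cre, hGFAP-Cre and control libraries, and H2-Ab1 1.53, 1.23 and 1.04. H2-Ab1 was rare outside the Emx1-Cre library: 18 hGFAP-Cre members held 56 UMIs, 30 of them in 1 cell, and after thinning it was detected in 1.75% of members and 1.31% of the other gate glia there. Plat had 0.84, 0.40 and 0.94 and Serpinf1 1.74, 0.37 and 2.62. Npy had 1.95, −1.01 and −0.19, Acta2 1.34, 2.47 and 0.31, Cryab −0.05, 1.33 and 0.36, and Gfap −0.58, 0.53 and 1.04. Microglial C1qa was lower in the members of each, at −1.54, −2.21 and −1.73.

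**Figure D5:**
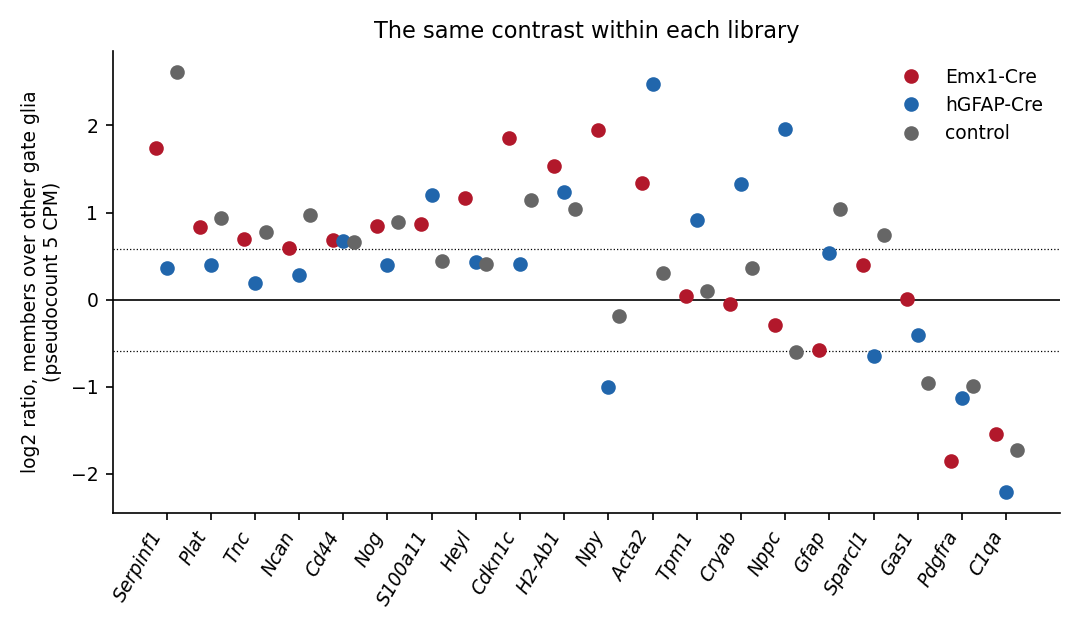
Log2 ratio (pseudocount 5 CPM) of members over the other gate glia of the same library for 20 genes, with a point for each of the Emx1-Cre, hGFAP-Cre and control libraries. Dotted lines mark 1.5-fold. Npy is at 1.95 in the Emx1-Cre library alone above 0, while C1qa lies below −1.5 in all 3.

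Set against control members, Emx1-Cre members differed more widely than from their neighbours. Of 8683 genes, 619 (7.13%) were at least 1.5-fold higher and 1988 (22.9%) at least 1.5-fold lower, and the median of all genes was −0.25, the shift against which these ratios are to be read. Npy was at 194 CPM in Emx1-Cre members against 4.76 CPM in control members, a log2 ratio of 4.35. S100a10 was at 86.1 against 2.38 CPM, Acta2 at 59.97 against 2.04, Phlda3 at 172 against 20.4 and Plvap, an endothelial diaphragm protein, at 88.7 against 9.87. Of 25 contractile genes 12 were called higher and 2 lower, with a median of 0.45. Of 17 astrocyte maturation genes none was higher and 13 were lower, with a median of −1.09, such as Clu, clusterin, at 56.8 against 247 CPM. Mfge8, a secreted opsonin of astroglia, was at 159 against 1414 CPM in control members, and of 6 sonic hedgehog genes 5 were lower, led by Gas1 at 35.2 against 216 CPM. Of 24 radial glia genes, 19 were lower.

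Against hGFAP-Cre members, 660 of 8686 genes (7.6%) were at least 1.5-fold higher and 1709 (19.7%) at least 1.5-fold lower in Emx1-Cre members, with a median of −0.18. All 20 G2/M genes were higher, with a median of 1.34, and 46.2% of Emx1-Cre members against 17.0% of hGFAP-Cre members had Mki67 or Top2a. Of 17 ERK response genes 11 were higher and 3 lower: Etv1 was at 84.8 against 24.7 CPM, Spry1, a feedback inhibitor, at 73.4 against 16.5 and Egr1, an immediate early gene listed apart, at 293 against 52.9. Against control members the same list had 3 higher and 4 lower of 16, with Etv1 at 84.8 against 83.7 CPM and Etv4 at 38.9 against 107. Serpinf1 was at 78.6 CPM in Emx1-Cre members against 5.05 CPM in hGFAP-Cre members and Lef1 at 46.6 against 3.19. Cryab was at 30.4 against 333 CPM and Clu at 56.8 against 608. All 7 measured ependymal markers were lower in the same comparison, with a median of −1.93 and a sum of 74.0 against 363 CPM, and their part in it was not tested. These comparisons of libraries share the Emx1-Cre members, and the genotype cannot be told apart from the library. Where control members are compared, it cannot be told apart from the sex either. hGFAP-Cre members against control members had 1238 of 9001 genes (13.8%) at least 1.5-fold higher and 1401 (15.6%) at least 1.5-fold lower.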

How the data were processed

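Single-cell counts of 3 libraries were used, 1 for each genotype. The authors deposited unnormalized UMI counts for every gene in every barcode. The software was Cell Ranger 5.0.0 per the file headers. The build was mm10, which the submitters' processing notes give; further settings are not given in the sources used here. All 27998 gene rows were alike in the 3 libraries.

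Cells with at least 1000 genes and under 10% mitochondrial UMIs were kept, doublets included. Members, lists and tests were chosen with earlier results of these data known. Counts were summed over cells and scaled to CPM. Log2 ratios have a pseudocount of 5 CPM, over genes at 10 CPM or more in either sum, and a call is 1.5-fold. Intervals are 95% Clopper-Pearson for shares and 95% Poisson for sums, and cover counting error only. Named genes are those of the rule and Plat, up to 4 per list (30 lists) with the largest ratios, and outside the lists at 50 CPM or more the 15 highest and 10 lowest with separate intervals, leaving out sex-linked, mitochondrial, ribosomal, haemoglobin and predicted genes. All others, such as the glial label, regional and sterol genes and those named for other libraries, were added after their values were seen. Clusters used scanpy 1.11.5 and leidenalg 0.10.2 (2000 variable genes, 30 components, 15 neighbours). Thinning drew 3000 UMIs per cell, left out cells with fewer and applied the rule anew to the thinned counts. Intervals were computed with scipy 1.17.1, and tables with pandas 2.3.3 and numpy 2.4.6 under Python 3.11.15. The ratio step was tested on simulated counts.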

Additional observations from a re-analysis of the deposited data

Results flagged for a closer look

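In 3 of the named genes members were at least 1.5-fold higher than the other gate glia in 1 library and at least 1.5-fold lower in another, with intervals apart in both. The difference between libraries was not tested, since there is 1 library for each genotype. Other genes, such as Gfap, differed in sign without passing 1.5-fold both ways. Npy had a log2 ratio of 1.95 in the Emx1-Cre, −1.01 in the hGFAP-Cre, from 8 UMIs in members, and −0.19 in the control library. Nppc, the gene of C-type natriuretic peptide, had −0.29, 1.962 and −0.60 in the same order, and was at 3.32, 38.5 and 0 CPM in members. Sparcl1, a secreted protein of astrocytes, had 0.40, −0.65 and 0.74. For Npy in the hGFAP-Cre library, detection after thinning was 1.75% of members and 1.65% of the other gate glia. A difference was thus not seen there at equal depth.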

How the results depend on the processing

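Of the Emx1-Cre results, the member share of gate glia (56.8%) was 38.1% with at least 2 UMIs of Tagln and Has2, 39.3% thinned, 49.2% with no condition on Id3, 59.4% from 2000 genes on and 59.5% with 3 glial genes; the share of kept cells (8.92%) was 5.98% with 2 UMIs, 7.03% thinned, 14.6% from 2000 genes on, 4.796% without dividing cells and 7.64% without cells with 1 of 8 mural or fibroblast genes. The ratio of shares over the control (3.91) was 6.21 with 2 UMIs, 5.36 thinned and 6.03 without the Id3 condition, and over hGFAP-Cre (2.87) 4.43, 3.24 and 3.18. The 69 higher genes became 106 with 2 UMIs, 143 thinned, 157 without the Id3 condition, 108 without dividing cells, 27 at 50 CPM or more and 25 with a pseudocount of 20 CPM. The 49 lower genes became 29 with 3 glial genes, 134 thinned, 641 without the Id3 condition, 284 without dividing cells, 103 and 14 with pseudocounts of 1 and 20 CPM, 87 with every gene, 7 at 50 CPM or more, 133 as means of per-cell CPM, and, in alternatives chosen after seeing the data, 31 without cells with microglial or oligodendrocyte precursor genes and 11 without clusters led by genes of other cell types. The cause was not tested. Of 3 alternatives chosen after seeing the data, the other left out the cluster led by Cdkn1c. Over all alternatives 493 list medians and 2937 gene ratios stayed near the reported value, 51 and 441 moved, and Igfbp5 reversed to 0.24. Npy (1.68 to 2.25), Serpinf1 (1.30 to 2.05), Plat and Acta2 passed 1.5-fold in all 19 alternatives. No paired analysis was possible because each genotype has 1 library, and none could be left out.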
